A study of Mus musculus with 32 samples.

Results

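The genes described here encode the proteasome, its activators, its assembly chaperones and its inhibitor. They were chosen by name, as the rows of the deposited count table whose symbol is Psm, one letter from a to g and a number, or Pomp, and 49 of the 54429 symbols met this rule. The cells were Veravec, a line of mouse lung endothelial cells (ECs), the cells that line blood vessels. They were transfected with a control siRNA (si-control) or with siRNA against Dnmt1 (si-dnmt), the maintenance DNA methyltransferase, and were then given no cytokine, TNF (TNFα, 10 ng/mL), IFN (IFNγ, 1000 U/mL) or TNF + IFN for 16 h. Bulk RNA-seq of 4 libraries from each of the 8 groups, 32 in all and labelled as biological replicates, asked how silencing Dnmt1 alters the response of ECs to these cytokines. All groups, the untreated ones included, received 2 rounds of siRNA transfection. The line is a single cultured line, and the labels do not say whether the replicates came from separate cultures, so the tests measure the spread between these libraries.

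The 26S proteasome degrades ubiquitin-tagged proteins and makes most of the peptides that MHC class I molecules present. Its 20S core is a stack of rings in which alpha subunits form the gate and beta subunits hold the catalytic sites, and the 19S cap binds, unfolds and feeds in the substrate. Under IFN the catalytic subunits Psmb5, Psmb6 and Psmb7 can be replaced in newly made cores by Psmb8, Psmb9 and Psmb10, which gives the immunoproteasome, and the core can be capped by PA28, a ring of Psme1 and Psme2 that opens the gate without ATP. These 5 genes are called the inducible subunits below.

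Promoter windows are shown for the genes on which the results turn, to give the sequence at which their transcription starts. Each runs from 250 bases before to 50 bases from the RefSeq start of the gene in GRCm38.p6, 5′ to 3′ on the strand of the gene. Capitals mark matches to any of 4 short motifs searched on both strands, which were the interferon element core GAAANNGAA, the STAT element (GAS) TTCNNNGAA, an NF-kB form GGNNNTTCC and the antioxidant element core TGACNNNGC. Psmb9 lies at chr17:34187281-34187580 on the minus strand, Psmb8 at chr17:34197945-34198244 on the plus strand, Psme1 at chr14:55578244-55578543 on the plus strand and Psmf1, the proteasome inhibitor, at chr2:151741261-151741560 on the minus strand.
Psmb9: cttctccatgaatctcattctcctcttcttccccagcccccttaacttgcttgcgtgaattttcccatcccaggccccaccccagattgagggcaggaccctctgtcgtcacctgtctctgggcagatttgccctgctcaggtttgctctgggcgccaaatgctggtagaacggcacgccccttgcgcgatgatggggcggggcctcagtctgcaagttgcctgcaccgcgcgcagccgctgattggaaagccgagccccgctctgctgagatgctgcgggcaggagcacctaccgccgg
Psmb8: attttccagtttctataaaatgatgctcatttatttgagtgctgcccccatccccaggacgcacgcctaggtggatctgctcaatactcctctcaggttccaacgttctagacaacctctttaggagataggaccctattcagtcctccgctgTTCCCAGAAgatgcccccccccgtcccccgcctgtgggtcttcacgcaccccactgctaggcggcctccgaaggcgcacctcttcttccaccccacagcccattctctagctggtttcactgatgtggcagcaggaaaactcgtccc
Psme1: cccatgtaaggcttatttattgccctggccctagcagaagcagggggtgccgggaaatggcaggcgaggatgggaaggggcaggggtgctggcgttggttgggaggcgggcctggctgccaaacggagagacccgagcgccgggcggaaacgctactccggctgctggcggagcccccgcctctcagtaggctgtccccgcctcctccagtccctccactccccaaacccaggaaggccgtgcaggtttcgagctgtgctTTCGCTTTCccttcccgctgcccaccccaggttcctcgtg
Psmf1: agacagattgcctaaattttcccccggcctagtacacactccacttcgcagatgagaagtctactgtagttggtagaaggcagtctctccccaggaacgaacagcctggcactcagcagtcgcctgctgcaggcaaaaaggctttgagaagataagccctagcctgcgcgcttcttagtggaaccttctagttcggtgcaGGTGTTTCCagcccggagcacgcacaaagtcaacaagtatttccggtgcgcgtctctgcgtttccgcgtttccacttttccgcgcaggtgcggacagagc

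RefSeq windows were found for 41 of the 49 members, and Psma6, Psmc2 and Psme2 had 2 windows each. A gene was counted when any of its windows held the letters. The interferon element core was found in 1 of the 5 inducible subunits (Psme1), in 7 of the 36 other members and in 9.76% of 27025 mouse genes with a window. The GAS letters were in 1 of the 5 (Psmb8), in 2 of the 36 and in 9.55% of genes. The NF-kB form was in 0 of the 5, in 15 of the 36 (Psmf1 among them) and in 20.7% of genes, and the antioxidant core in 0 of the 5, 6 of the 36 and 14% of genes. The windows are only those of the RefSeq starts. The start of the principal GENCODE transcript lies 434 bases upstream of that window's start site for Psmb9 and 405 bases upstream for Psmb8, so for these genes the window is not the sequence before that other start. For Psme1 it lies 134 bases upstream, within the window. The interferon letters of Psme1, at base 11 from the RefSeq start, thus lie after that other start. A match is a description of letters and not a site bound in these cells.

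The libraries held 17362546 to 33500030 counts, and the members took 0.4154% of the counts of a library at the least (in si-control) and 0.7843% at the most (in si-dnmt + TNF + IFN). Dnmt1, the siRNA target, was lower with si-dnmt in each cytokine state, by 3.76 to 4.08 on the log2 scale. The summed level of 10 endothelial markers was 6020 to 9362 CPM (counts scaled by library depth and edgeR's TMM factors) in si-control and 5894 to 8539 in si-dnmt without cytokine, 5038 to 7997 in the groups with IFN alone and 3523 to 5558 in the 4 groups with TNF, of either siRNA. The summed level of 8 leukocyte markers, of which Cd3e was at 0 in every library, was 67.02 to 231.4 CPM, and that of 5 epithelial markers, of which Sftpc was at 0, was 3.652 to 22.65. The 6 mesenchymal markers summed to 9.648 to 28.79 CPM in si-control, against 42.86 to 188.9 in si-dnmt, and Acta2, the smooth muscle actin gene, carried most of this (means of 15 and 107 CPM). It was the marker of the 6 called without cytokine (log2 2.83 ± 0.54, edgeR adjusted p = 0.000434), and the means of the other 5 were all under 2 CPM in both of these groups. Dcn, a matrix proteoglycan gene, was at a mean of 32.8 CPM with TNF in si-control against 1.02 without. Their part in the results below was not tested. In bulk RNA, a change in the share of cells of a kind cannot be told apart from a change of RNA per cell. Libraries numbered 1 and 2 stood apart from those numbered 3 and 4 in every group, with a median correlation of their deviations from group means of −0.41 between these sets, and results that depend on the set are given for each set alone.

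Of the 49 members, 47 had enough counts to be tested. Psma8, a testis form of an alpha subunit, had 13 counts in all 32 libraries together and Psmb11, the thymus form of Psmb5, had 6, and neither could be tested. Differences between groups are log2 fold changes ± SE from edgeR's quasi-likelihood test over 15254 genes, with the Benjamini-Hochberg adjusted p, and a gene was called higher or lower at an adjusted p under 0.05. In 12 comparisons of 2 groups, 46 of the 47 tested members were called at least once. Psmd9, a chaperone of the 19S base, was called in none. The share of all genes called at least once is not given here, so this count is not a result about the members. In 1 of these comparisons alone, TNF + IFN against no cytokine in si-control, 45.2% of all genes tested were called. The comparisons with no cytokine share their untreated libraries.

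TNF, IFN and TNF + IFN each raised the 5 inducible subunits in both siRNA conditions. The fitted changes were larger with IFN than with TNF, a difference that was not tested, and those of the catalytic subunits that Psmb8, Psmb9 and Psmb10 replace stayed under 0.60 on the log2 scale. Psmb9, which replaces Psmb6, was at 2.721, 2.12, 4.307 and 3.722 CPM in the 4 si-control libraries and at 31.63, 26.35, 21.8 and 22.89 CPM with TNF. With IFN it was at 151.7, 162.1, 139.3 and 171.5 CPM, and with TNF + IFN at 216.8, 186.5, 183 and 185.1. The 4 ranges did not overlap, and the levels rose in the order none, TNF, IFN and TNF + IFN. Against no cytokine the increase was 7.92-fold with TNF (log2 2.99 ± 0.20, edgeR adjusted p = 7.43e-12), 48.2-fold with IFN (5.59 ± 0.22, adjusted p = 1.71e-17) and 59.5-fold with TNF + IFN (5.89 ± 0.22, adjusted p = 4.63e-18). TNF + IFN against IFN alone did not pass the test (0.30 ± 0.17, adjusted p = 0.199). Part of the Psmb9 transcript overlaps that of Tap1, the peptide transporter gene, on the other strand, and the strand setting of the counting is not given in the sources used here. The mean of Tap1 was 42.6 CPM in si-control and 598 with IFN, so an unknown part of the reads of one could have been counted for the other.

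Psmb8, which replaces Psmb5, was at 18.11, 7.263, 15.43 and 11.48 CPM in si-control and at 101.1, 86.83, 51.47 and 54.6 with TNF. It was at 228.9, 211.9, 194.2 and 208.7 CPM with IFN and at 296.6, 274.2, 255.5 and 254.1 with TNF + IFN. The groups again did not overlap. The increases were 5.61-fold (log2 2.49 ± 0.27), 16.1-fold (4.01 ± 0.29) and 20.6-fold (4.37 ± 0.29), with edgeR adjusted p of 6.15e-08, 1.07e-11 and 8.64e-13. Psmb10, which replaces Psmb7, was at 37.82, 30.11, 28.22 and 25.21 CPM in si-control, 116.4, 132.8, 91.18 and 113.4 with TNF, 223.5, 287, 182.1 and 239.5 with IFN and 341.1, 325.2, 255.6 and 260.9 with TNF + IFN. Its IFN and TNF + IFN libraries overlapped. The increases of Psmb10 were 3.74-fold, 7.68-fold and 9.75-fold (adjusted p = 2.07e-09, 2.34e-13 and 1.2e-14).

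The PA28 genes rose by less in fold but from a higher level. Psme1, the alpha subunit of PA28, was at 82.02, 72.47, 85.83 and 82.07 CPM in si-control, 186.4, 195.8, 179.6 and 176.4 with TNF, 373.5, 420.4, 310.9 and 342.1 with IFN and 474.6, 464.2, 381.9 and 397.8 with TNF + IFN. That was an increase of 2.29-fold, 4.49-fold and 5.33-fold (log2 1.19 ± 0.11, 2.17 ± 0.12 and 2.41 ± 0.12). Psme2, the beta subunit, was at 77.32, 52.48, 72.08 and 72.93 CPM in si-control, 271, 193.8, 151.2 and 170.1 with TNF, 425, 394.3, 364.3 and 353.5 with IFN and 482.7, 429.3, 418 and 437.7 with TNF + IFN, an increase of 2.86-fold, 5.59-fold and 6.43-fold. For both genes the untreated, TNF and IFN groups did not overlap, while the IFN and TNF + IFN groups overlapped. A near-identical copy, Psme2b, held 8.527% to 17.48% of the counts of the pair in a library, so the level of Psme2 is uncertain to about that extent.

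With si-dnmt the 5 genes also rose under each cytokine state. Psmb9 was 4.82-fold, 13.3-fold and 19.4-fold higher with TNF, IFN and TNF + IFN than in untreated si-dnmt libraries, and Psmb8 was 3.95-fold, 6.58-fold and 9.36-fold higher. Psmb10 was 3.07-fold, 4.72-fold and 7.01-fold higher, Psme1 1.91-fold, 3.16-fold and 3.84-fold higher, and Psme2 2.82-fold, 3.82-fold and 5.59-fold higher, each with an edgeR adjusted p under the threshold. TNF + IFN against IFN alone was called for 3 of the 5 with si-dnmt, which were Psmb9 (0.54 ± 0.17, adjusted p = 0.023), Psmb10 (0.57 ± 0.16, adjusted p = 0.0115) and Psme2 (0.55 ± 0.15, adjusted p = 0.00851), and for 0 of the 5 with si-control. Of all genes tested, 12.4% were called higher in this comparison with si-dnmt and 15.6% with si-control. All 5 estimates were positive in both siRNA conditions, and the difference between the conditions was not tested here. With the replicate number as a block, Psmb10 (0.35, adjusted p = 0.0228) and Psme1 (0.25, adjusted p = 0.0194) were also called with si-control, and Psmb8 (0.53, adjusted p = 0.0427) and Psme1 (0.28, adjusted p = 0.0101) with si-dnmt. The call of Psmb9 with si-dnmt was lost without si-dnmt + IFN replicate 1 or 3 or without si-dnmt + TNF + IFN replicate 4 (0.48 to 0.53, adjusted p = 0.0541 to 0.0754), and with libraries scaled by total counts (0.45, adjusted p = 0.0575).

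**Figure D1:**
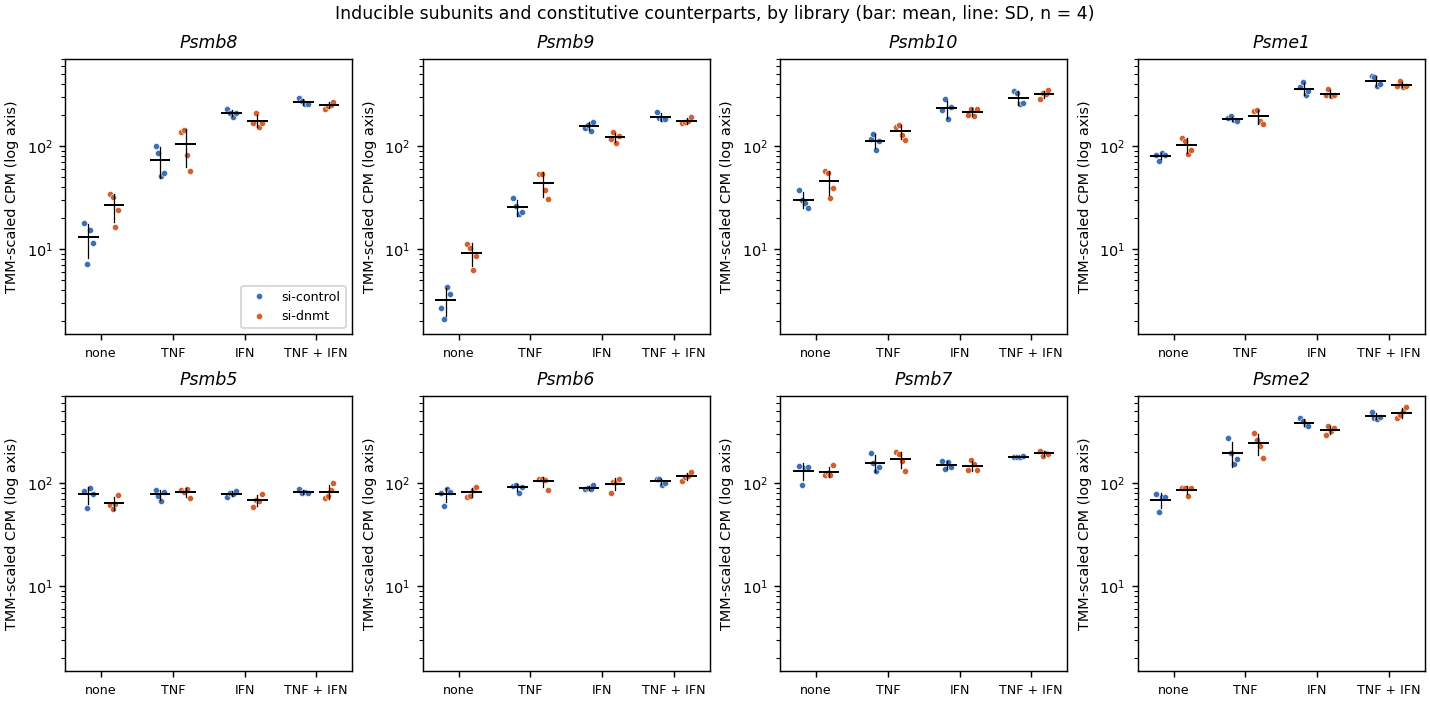
TMM-scaled CPM (log axis) of the 5 inducible subunits and of Psmb5, Psmb6 and Psmb7 by cytokine state, with si-control in blue and si-dnmt in orange. Points are libraries, bars the mean and lines the SD (n = 4 per group). Psmb9 climbs from 2.12 to 4.307 CPM in si-control to 183 to 216.8 CPM with TNF + IFN, while Psmb5 stays between 56.94 and 90.01 CPM in the si-control libraries with or without cytokine.

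The catalytic subunits of the constitutive core showed no change of this size. Psmb5, with chymotrypsin-like activity, was at 83, 56.94, 90.01 and 78.4 CPM in si-control and at 73.41, 79.64, 77.07 and 84.09 with IFN (log2 0.03, 95% interval −0.22 to 0.27, adjusted p = 0.931). With TNF the difference was 0.00 (−0.24 to 0.25), and with TNF + IFN it was 0.09 (−0.16 to 0.33). Psmb6, with caspase-like activity, was higher with TNF + IFN in si-control (0.41 ± 0.11, adjusted p = 0.00229), and so was Psmb7, with trypsin-like activity (0.45 ± 0.13, adjusted p = 0.00578), and neither was called with libraries scaled by total counts (0.24 and 0.28, adjusted p = 0.0891 and 0.0903). With si-dnmt all 3 were called higher with TNF (0.34, 0.35 and 0.41 for Psmb5, Psmb6 and Psmb7) and with TNF + IFN (0.37, 0.51 and 0.59), and 0 of the 3 with IFN. Of all genes tested, 11.5%, 21.3% and 6.66% were called higher in these 3 states. The 3 calls with TNF in si-dnmt were close to the threshold (adjusted p = 0.0492, 0.0204 and 0.0261), and were each lost when replicate 1 or 2 of either group was left out, Psmb5 also without replicate 3 of either group, Psmb6 without si-dnmt + TNF replicate 3 and Psmb7 without si-dnmt replicate 3 (0.28 to 0.39 in these fits). The Psmb5 call with TNF + IFN in si-dnmt was lost without si-dnmt replicate 1 (0.34, adjusted p = 0.0519) or 2 (0.30, 0.0746) or si-dnmt + TNF + IFN replicate 4 (0.26, 0.11).

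The balance of each pair was compared within a library, as the ratio of the counts of the inducible to the constitutive subunit, by an exact two-sided permutation test of 4 against 4 libraries. The smallest p this design allows is 0.0286, which is 0.0373 after adjustment over the 30 ratio tests, and 23 of the 30 reached it. Psmb9/Psmb6 was 0.03408, 0.03564, 0.04976 and 0.04572 in si-control, 0.337, 0.2768, 0.272 and 0.2498 with TNF, 1.746, 1.832, 1.615 and 1.781 with IFN and 2.009, 1.724, 1.9 and 1.853 with TNF + IFN. The ratio was thus 6.92-fold, 42.7-fold and 45.8-fold that of untreated libraries. Psmb8/Psmb5 was 0.128 to 0.2184 in si-control, 0.6717 to 1.178 with TNF, 2.482 to 3.118 with IFN and 3.144 to 3.425 with TNF + IFN, or 5.63-fold, 16.5-fold and 20.2-fold. Psmb10/Psmb7 was 0.1783 to 0.3142, 0.5971 to 0.8447, 1.153 to 2.127 and 1.432 to 1.895, or 3.13-fold, 6.61-fold and 7.04-fold. The exons of Psmb7 overlap those of Nek6, a mitotic kinase gene, on the other strand over 405 bases, and the mean of Nek6 was 168 CPM in si-control, 99 with TNF and 90.1 with TNF + IFN, so the same limit of counting as for Psmb9 and Tap1 applies to this pair. All 9 of these ratios, and the 9 with si-dnmt, rose without overlap of the groups.

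With si-dnmt, 2 of the 3 ratios passed the test as higher than with si-control before cytokine. Psmb9/Psmb6 was 0.155, 0.1413, 0.0743 and 0.094 in untreated si-dnmt libraries, all above the 4 si-control libraries (2.73-fold, exact permutation p = 0.0286). With TNF it was again higher with si-dnmt than with si-control, at 0.4959, 0.4931, 0.3488 and 0.3583 (1.48-fold). With IFN, however, it was lower, at 1.478, 1.354, 1.048 and 1.148 (0.715 of the si-control ratio), and with TNF + IFN at 1.585, 1.515, 1.521 and 1.535 (0.823), in both cases without overlap and with the same p. The order of the siRNA conditions was therefore opposite with and without IFN for this pair. Psmb8/Psmb5 was 2.49-fold higher with si-dnmt in untreated cells (exact permutation p = 0.0286) and did not pass with TNF (p = 0.314), IFN (p = 0.714) or TNF + IFN (p = 0.229). Psmb10/Psmb7 did not pass in any state (exact permutation p = 0.114 to 1). This test ignored the replicate sets, so the spread between them counted within each group. Compared at the same replicate number, Psmb10/Psmb7 was higher with si-dnmt for every number without cytokine and with TNF. Psmb8/Psmb5 was so with TNF, but was lower for every number with TNF + IFN. In the other tests that did not pass, the numbers went both ways. The differences at the same number were not tested.

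**Figure D2:**
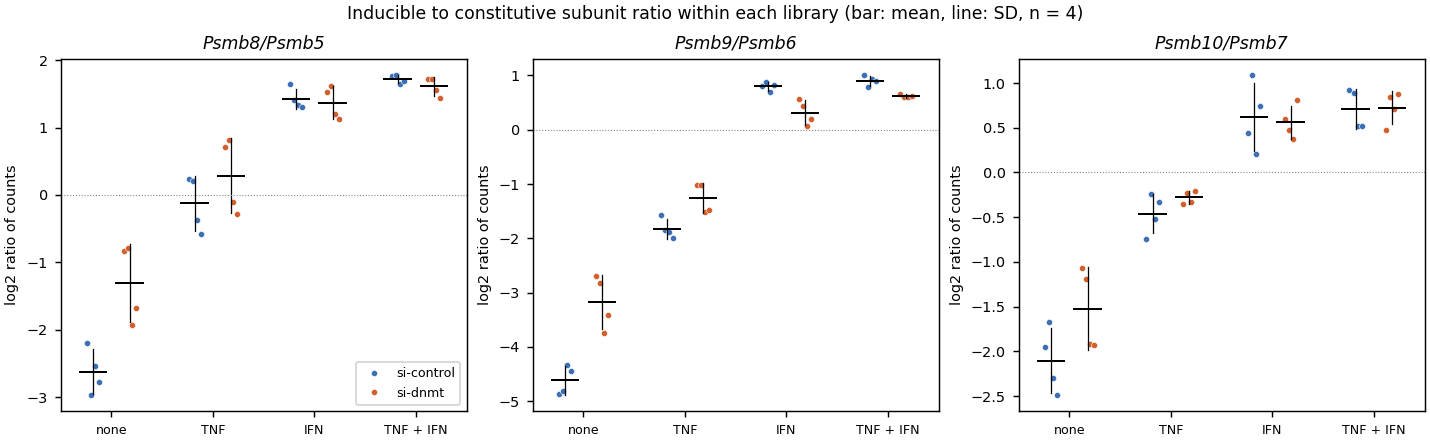
Log2 ratio of the counts of the inducible to the constitutive subunit within each library, by cytokine state, with si-control in blue and si-dnmt in orange (points: libraries, bars: mean, lines: SD, n = 4). For Psmb9/Psmb6 the si-dnmt libraries lie above si-control without cytokine and with TNF and below it with IFN and TNF + IFN.

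Per length of transcript, the inducible subunits went from a minor to a large part of each pair. Counts were divided by the merged exon length of the gene, and the share that follows with the length of the principal transcript is given after it, since the merged lengths of some genes are extended by retained introns. Psmb9 made up 2.053% ± 0.3776 (SD, n = 4) of Psmb9 plus Psmb6 in si-control (2.361% by the principal transcript), 47.12% with IFN (50.69%) and 48.88% with TNF + IFN (52.45%). Psmb8 made up 4.218% ± 0.9525 of its pair in si-control (8.366%), 41.66% with IFN (59.69%) and 46.69% with TNF + IFN (64.52%). Psmb10 made up 32.01% ± 5.471 (17.29%), 75.29% with IFN (57.55%) and 76.59% with TNF + IFN (59.14%). The share of Psmb8 and Psmb10 depends on which length is used. In untreated si-dnmt libraries the shares were 5.574% for Psmb9 and 10.15% for Psmb8 by merged exon length. Ranked by level per merged exon length among the 49 members, Psmb9 moved from place 47 in si-control to 22 with TNF + IFN, Psmb8 from 44 to 12, Psmb10 from 36 to 4, Psme1 from 21 to 3 and Psme2 from 14 to 1.

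Summed over the 5 inducible subunits, the level was 195.9 ± 22.93 CPM (SD, n = 4) in si-control, 593.7 ± 95.45 with TNF, 1346 ± 122.6 with IFN and 1630 ± 144.8 with TNF + IFN. Summed over the 44 other members it was 4256 ± 158.4, 5175 ± 199.3, 4980 ± 102.2 and 5970 ± 75.97 CPM. The other members thus also stood higher as a sum in each cytokine state, by far less in fold. With si-dnmt the inducible sums were 269.5 ± 44.92, 726.7 ± 158.7, 1163 ± 99.17 and 1618 ± 102.7 CPM and the other sums 4217 ± 207.4, 5311 ± 215.3, 4974 ± 199.7 and 6165 ± 154.2.

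Across all tested members, TNF in si-control raised 25 of 47 and lowered 0 (29 had an unadjusted p under 0.05), where 16.1% of all genes tested were called higher and 14.6% lower. IFN raised 19 and lowered 1 (background 8.56% higher and 5.92% lower), and TNF + IFN raised 39 and lowered 1 (23.5% and 21.6%). TNF + IFN against IFN alone raised 22 and lowered 0 (15.6% and 13.5%). With si-dnmt, TNF raised 36 and lowered 0 (11.5% and 9.54%), IFN raised 22 and lowered 0 (6.66% and 2.35%), TNF + IFN raised 38 and lowered 0 (21.3% and 18.9%), and TNF + IFN against IFN raised 25 and lowered 0 (12.4% and 11.3%). The median log2 fold change of the members was 0.30 with TNF, 0.19 with IFN and 0.47 with TNF + IFN in si-control, where that of all genes was between −0.01 and 0.00. When libraries were scaled by their total counts instead of TMM, the median of all genes with TNF + IFN moved to −0.178 in si-control and −0.175 in si-dnmt, and the members called were 29 higher and 2 lower, and 30 higher and 2 lower. Of all genes, 48.1% and 44.0% were called with that scaling. The count with TNF in si-dnmt was 22 without the filter on low counts and 23 without si-dnmt replicate 2, and the share of all genes in these 2 fits is not given here.

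Apart from the inducible subunits, the alpha subunits of the gate rose together. All 7 tested alpha subunits were called higher with TNF + IFN in both siRNA conditions, 6 of 7 with IFN in both, and 6 (si-control) and 7 (si-dnmt) with TNF. Of all genes tested, 23.5% (si-control) and 21.3% (si-dnmt) were called higher with TNF + IFN. With IFN these shares were 8.56% and 6.66%, and with TNF 16.1% and 11.5%. Psma5 was at 119.5, 88.85, 151.5 and 151 CPM in si-control and at 260, 243.9, 263.1 and 245.1 with IFN, without overlap (log2 0.99 ± 0.14, edgeR adjusted p = 7.01e-06), and at 284.7, 273.5, 264.5 and 316.2 with TNF + IFN (1.16 ± 0.14). Psma6 differed from this pattern. It was at 117.5, 104.6, 102.6 and 101 CPM in si-control, 245.3, 215.3, 150 and 160.4 with TNF (0.86 ± 0.13, adjusted p = 7.14e-06) and 129, 124.3, 106.3 and 96.62 with IFN, which overlapped the untreated libraries. Of the 4 non-catalytic beta subunits, 4 were called higher with TNF + IFN in each siRNA condition, against the same 23.5% and 21.3% of all genes. Psmb2 rose from 44.58 to 48.57 CPM in si-control to 61.75 to 77.28 with IFN (0.61 ± 0.08, adjusted p = 1.01e-06).

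In the 19S cap, the 6 ATPases, which unfold substrates, counted 3, 1 and 6 higher with TNF, IFN and TNF + IFN in si-control, and the 11 non-ATPase subunits counted 7, 2 and 10. Of all genes tested, 16.1%, 8.56% and 23.5% were called higher in these states. With IFN the counts were close to that share and are not a result about these subunits. Psmd8, a lid subunit, was at 149.2, 172.7, 135.1 and 128.4 CPM in si-control, 203.1, 214.6, 201.1 and 231.8 with TNF, 125.6, 150.6, 116.7 and 131 with IFN and 289.1, 249.5, 222.1 and 217 with TNF + IFN. It was thus higher in both TNF states (0.54 ± 0.09 against none, and 0.90 ± 0.09 for TNF + IFN against IFN, adjusted p = 6.57e-05 and 2.84e-08), and the IFN libraries overlapped the untreated ones. Psmd10 (gankyrin), a chaperone that binds an ATPase of the 19S base, was likewise at higher levels in both TNF states, and its IFN libraries overlapped the untreated ones. It was at 44.29, 34.03, 26.55 and 27.45 CPM in si-control, 78.17, 71.27, 51.86 and 54.22 with TNF, 44.83, 37.82, 32.45 and 28.41 with IFN and 73.9, 72.47, 64.34 and 71.29 with TNF + IFN (0.95 ± 0.17 with TNF against none, and 0.97 ± 0.17 for TNF + IFN against IFN, adjusted p = 6.53e-05 and 4.76e-05). Psmd5, another 19S chaperone, was the member called lower with IFN in si-control, at 76.66, 89.99, 92.94 and 88.63 CPM against 108.9, 119.1, 103.2 and 110.2 (fell by 0.34 on the log2 scale, adjusted p = 0.0241). That call was lost without si-control replicate 2 (−0.30, adjusted p = 0.0831) or si-control + IFN replicate 1 (−0.31, adjusted p = 0.0723).

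Of the chaperones that build the 20S core, Psmg4, a low-level gene, rose in every cytokine state. It was at 4.129, 2.757, 4.966 and 4.306 CPM in si-control, 7.735, 7.408, 6.229 and 9.053 with TNF, 10.98, 12.9, 12.38 and 11.99 with IFN and 14.51, 15.15, 10.97 and 12.6 with TNF + IFN. The log2 increases were 0.91 ± 0.16, 1.57 ± 0.16 and 1.72 ± 0.16 (adjusted p = 9.88e-05, 2.21e-08 and 1.19e-09). Pomp, which brings the beta subunits into the half-made core, was at 114.5, 86.89, 109.1 and 96.34 CPM in si-control and at 162.4, 175.4, 166.4 and 162.8 with IFN (0.71 ± 0.12, adjusted p = 0.000115), and with TNF at 119.4, 112.2, 79.03 and 83.01, which spanned the untreated range. Of the activators other than Psme1 and Psme2, Psme3 (PA28γ, a nuclear activator) rose with TNF in si-control (0.54 ± 0.12, adjusted p = 0.000885), and Psme4 (PA200) was lower with TNF + IFN (fell by 0.31 on the log2 scale, adjusted p = 0.0106), a call lost without si-control replicate 2 (−0.22, adjusted p = 0.0705).

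**Figure D3:**
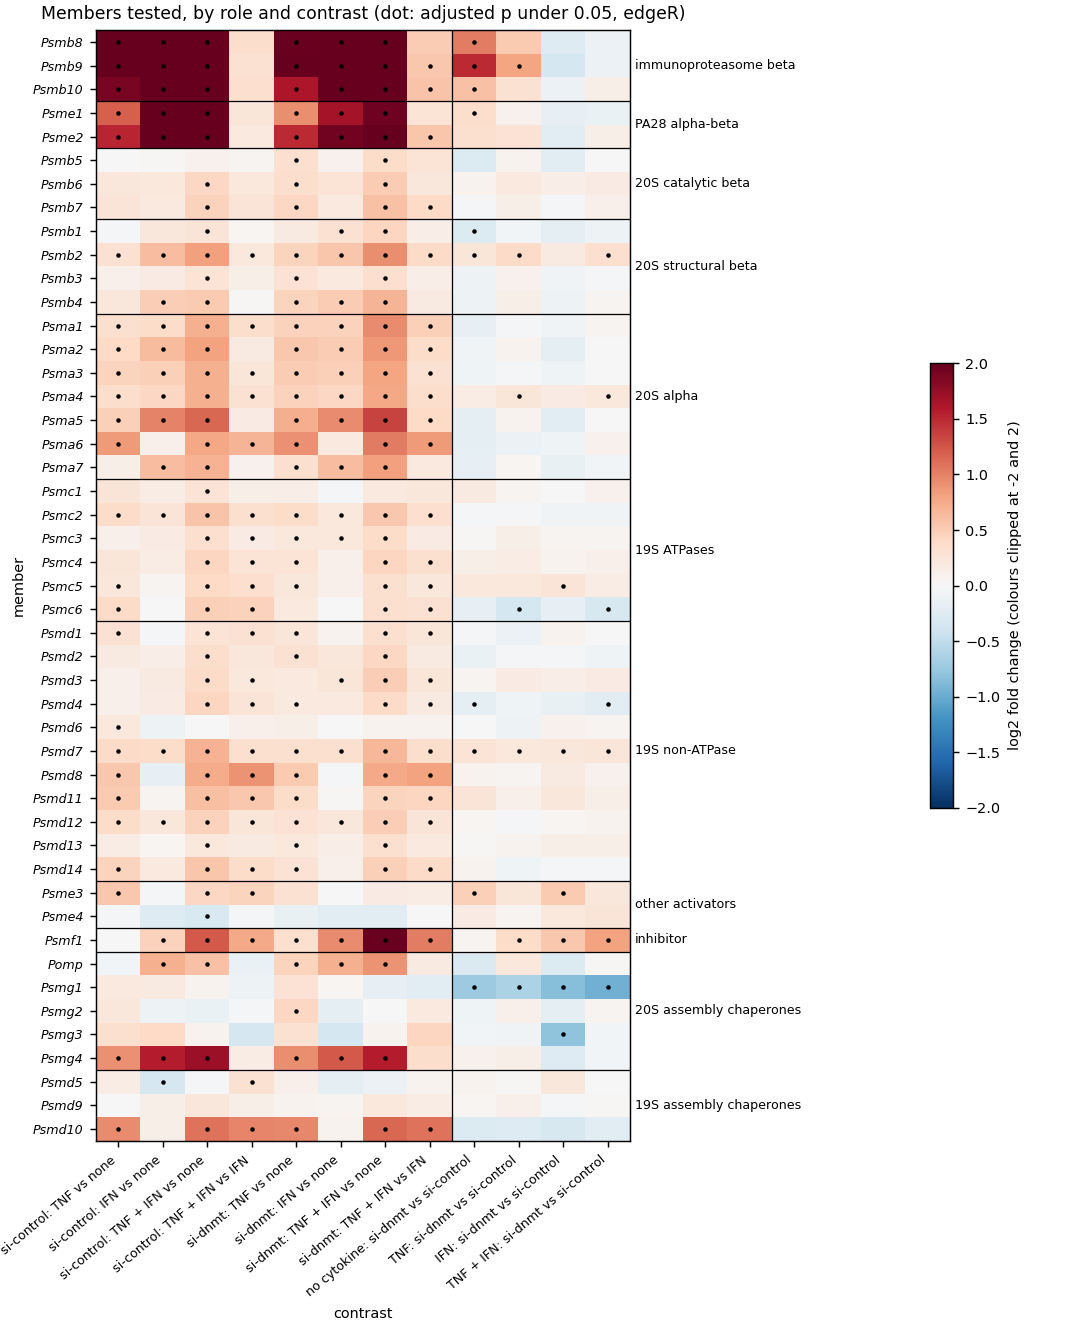
Log2 fold change of the 47 tested members (rows, by role) in the 12 comparisons of 2 groups (columns), with colours limited to −2 to 2 and a dot where the edgeR adjusted p was under 0.05. The immunoproteasome and PA28 rows are the darkest in the cytokine columns, and in the 4 siRNA columns 6 to 10 members carry a dot.

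Psmf1 (PI31), which binds the 20S core and is known as its inhibitor, responded to the combination of cytokines. In si-control it was at 28.9, 31.6, 26.55 and 25.79 CPM without cytokine, 25.14, 32.87, 27.12 and 27.99 with TNF, 44.49, 43.17, 31.53 and 36.72 with IFN and 76.35, 71.48, 57.93 and 58.01 with TNF + IFN. The TNF libraries spanned the untreated ones (log2 0.00 ± 0.11, 95% interval −0.22 to 0.22), IFN gave 0.47 ± 0.11 (adjusted p = 0.00322) and TNF + IFN 1.23 ± 0.11 (2.34-fold, adjusted p = 3.5e-10). With si-dnmt it was at 31.64, 29.39, 26.62 and 29.16 CPM without cytokine, 35.74, 36.89, 35.84 and 37.99 with TNF, 62.19, 60.37, 47.06 and 56.28 with IFN and 119.3, 117.4, 114.2 and 109.4 with TNF + IFN. Each cytokine state differed from the one before it without overlap, and TNF + IFN was 3.94-fold above no cytokine (1.98 ± 0.11, adjusted p = 3.51e-14).

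The effect of si-dnmt on Psmf1 was called in the 3 cytokine states and not without cytokine. It was 0.05 ± 0.11 without cytokine (adjusted p = 0.805), 0.37 ± 0.11 with TNF (0.0158), 0.53 ± 0.11 with IFN (0.000778) and 0.80 ± 0.11 with TNF + IFN (1.74-fold, 5.81e-06). The interaction of siRNA with TNF + IFN passed the test (0.75 ± 0.15, adjusted p = 0.019), and those with TNF (0.736) and IFN (0.826) did not. Leaving out si-control + TNF replicate 1 ended the call with TNF (0.32, adjusted p = 0.0618). In libraries 1 and 2 alone the effect with TNF + IFN was 0.68 ± 0.10 and in libraries 3 and 4 alone 0.95 ± 0.10.

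Psmg1, a chaperone that starts assembly of the alpha ring, was lower with si-dnmt in all 4 cytokine states. Without cytokine it was at 18.86, 12.09, 18.2 and 18.66 CPM in si-control and 10.77, 9.624, 8.6 and 12.16 in si-dnmt, where the highest si-dnmt library stood just above the lowest si-control library. With IFN it was at 16.42, 17.43, 21.44 and 21.49 against 8.392, 11.01, 10.81 and 12.14 CPM, and with TNF + IFN at 16.24, 18.22, 18.24 and 18.89 against 8.493, 9.657, 8.561 and 10.08. With TNF it was at 23.76, 19.08, 15.79 and 19.36 against 13.91, 13.24, 13.28 and 9.562. In these 3 states the groups did not overlap. The log2 differences were −0.72 ± 0.15, −0.64 ± 0.15, −0.85 ± 0.15 and −0.96 ± 0.15 for none, TNF, IFN and TNF + IFN (edgeR adjusted p = 0.00108, 0.00289, 0.000169 and 5.34e-05), or 1.65-fold, 1.56-fold, 1.81-fold and 1.94-fold lower. In libraries 1 and 2 alone the difference without cytokine was −0.60 and in libraries 3 and 4 alone −0.83, each called. No cytokine comparison of Psmg1 passed the test in either siRNA condition.

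**Figure D4:**
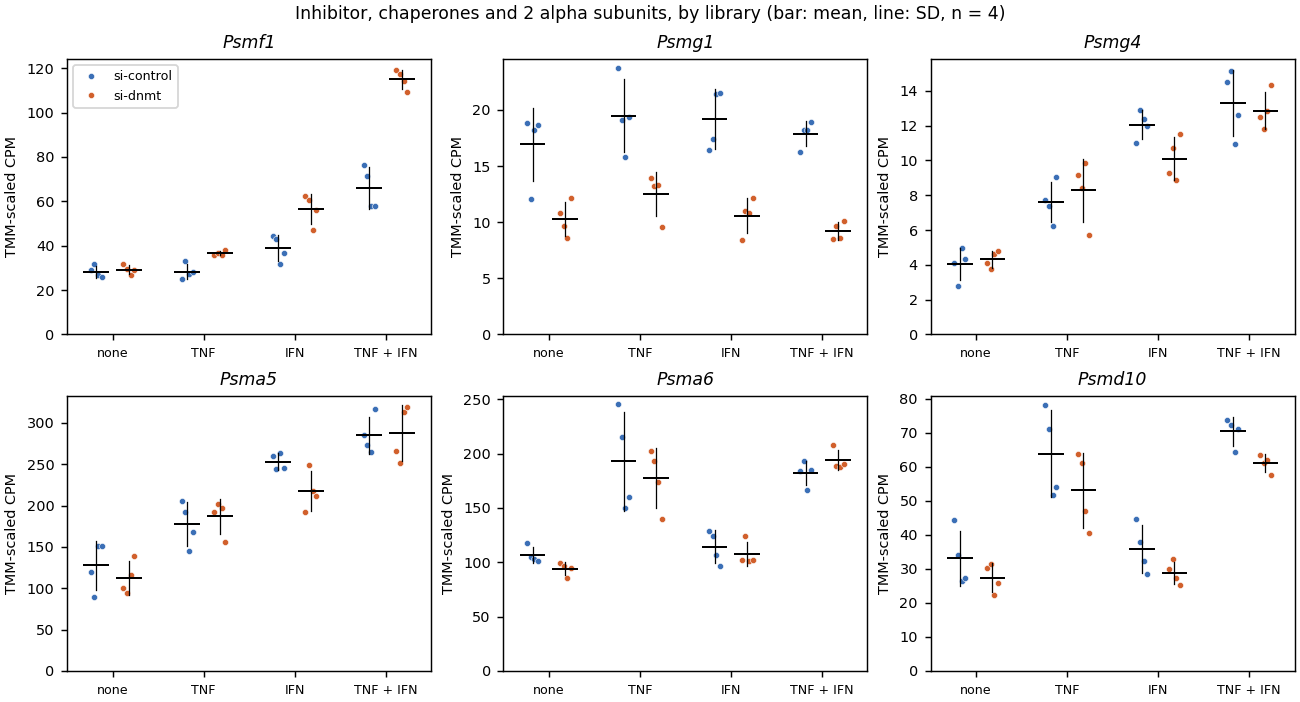
TMM-scaled CPM (linear axis from 0) of Psmf1, Psmg1, Psmg4, Psma5, Psma6 and Psmd10 by cytokine state, with si-control in blue and si-dnmt in orange (points: libraries, bars: mean, lines: SD, n = 4). Psmf1 reaches 109.4 to 119.3 CPM in si-dnmt + TNF + IFN, above the 57.93 to 76.35 CPM of si-control + TNF + IFN, and Psmg1 lies lower with si-dnmt in each state.

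Across the members, si-dnmt called few of them. Without cytokine 7 were higher and 3 lower than with si-control (background 9.58% higher and 8.88% lower), with TNF 5 and 2 (10.4% and 9.59%), with IFN 4 and 2 (10.8% and 9.54%) and with TNF + IFN 4 and 3 (8.97% and 8.72%). These shares of the 47 are near those of all genes. With libraries scaled by total counts the splits were 10 higher and 1 lower without cytokine, 11 and 2 with IFN and 6 and 1 with TNF + IFN. Of these calls 90.9%, 84.6% and 85.7% were higher, against 70%, 66.7% and 57.1% with TMM. The median log2 fold change of all genes moved too, to 0.076, 0.086 and 0.075, from −0.005, −0.007 and 0.002 with TMM. With library totals 20.1%, 22.3% and 18.8% of all genes were called. How those calls split into higher and lower is not given here, so the shift in the splits is not a result about the members. With the replicate number as a block, 12 members were called with IFN, of which 6 were higher. The share of all genes called in that fit is not given here.

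Without cytokine, 4 of the 7 members that si-dnmt raised were inducible subunits. Psmb9 was at 11.39, 10.39, 6.313 and 8.619 CPM with si-dnmt, all above the 4 si-control libraries (2.82-fold, log2 1.50 ± 0.20, edgeR adjusted p = 4.3e-06). Psmb8 was at 34.14, 32.17, 16.55 and 23.94 CPM, of which replicate 3 lay within the si-control range (2.04-fold, 1.03 ± 0.26, adjusted p = 0.00647). Psmb10 was at 57.06, 54.58, 31.57 and 39.41 CPM, and replicate 3 lay again within that range (1.5-fold, 0.59 ± 0.17, adjusted p = 0.0136). Psme1 was at 121.1, 111.9, 84.29 and 92.51 CPM (log2 0.35 ± 0.11, adjusted p = 0.0326), and Psme2 at 89.01, 89.14, 75.08 and 88.9 CPM did not pass (0.32 ± 0.15, adjusted p = 0.161).

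The estimates were higher in libraries 1 and 2 than in libraries 3 and 4, and the difference between these sets was not tested. For Psmb9 they were 2.17 ± 0.17 and 0.89 ± 0.18, for Psmb8 1.38 ± 0.22 and 0.59 ± 0.16, for Psmb10 0.72 ± 0.13 and 0.41 ± 0.14, and for Psme1 0.60 ± 0.10 and 0.07 ± 0.08. The first 3 genes were called in both sets and Psme1 in libraries 1 and 2 alone (adjusted p = 8.01e-05, against 0.51 in 3 and 4). The call of Psmb10 was lost without si-control replicate 4 (0.51, adjusted p = 0.0544), si-dnmt replicate 1 (0.46, 0.0649) or si-dnmt replicate 2 (0.49, 0.0566), and that of Psme1 without any of si-control replicates 1, 2 and 4 and si-dnmt replicates 1 and 2 (adjusted p = 0.0506 to 0.137). In a fit of the 2 untreated groups alone Psmb8, Psmb10 and Psme1 were not called (adjusted p = 0.0528, 0.0863 and 0.089).

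Fewer inducible subunits were called between the siRNA conditions with cytokine. Of all genes tested, 18.5% were called without cytokine, and 20.0%, 20.3% and 17.7% with TNF, IFN and TNF + IFN. With TNF, 1 of the 5 was called, Psmb9 at 54.01, 54.26, 37.5 and 30.69 CPM against 31.63, 26.35, 21.8 and 22.89 (0.78 ± 0.18, adjusted p = 0.00218). With IFN, Psmb9 was at 118.7, 137.5, 106.5 and 124.5 CPM with si-dnmt, all below the 139.3 to 171.5 of si-control, but the difference did not pass the test (−0.36 ± 0.17, adjusted p = 0.152). It did within libraries 1 and 2 alone (−0.30, adjusted p = 0.0294) and within libraries 3 and 4 alone (−0.43, adjusted p = 0.00413). In the fit of all libraries 0 of the 5 were called with IFN or with TNF + IFN. The interaction of siRNA and IFN was −1.86 ± 0.26 for Psmb9 (adjusted p = 0.000664), and that of siRNA and TNF + IFN −1.62 ± 0.26 (adjusted p = 0.00203). For Psmb9 the response to either state was thus smaller in fold with si-dnmt, by 3.62-fold and 3.07-fold. The interactions with IFN alone of Psmb8 (−1.29 ± 0.36, adjusted p = 0.474), Psmb10 (−0.70 ± 0.23) and Psme1 (−0.51 ± 0.16) had the same sign and did not pass. With the replicate number as a block, the interactions with TNF + IFN of Psmb8 (−1.08, adjusted p = 0.0367) and Psme1 (−0.45, adjusted p = 0.0304) passed as well, which made 4 members.

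Among all members the interaction of siRNA with TNF was called for 0 (3 at an unadjusted p under 0.05, background 0.0328%) by edgeR, that with IFN for 1 (Psmb9, background 0.0459%) and that with TNF + IFN for 2 (Psmb9 and Psmf1, background 0.531%), in opposite directions. The Psmb9 interaction with IFN was −2.47 ± 0.20 in libraries 1 and 2 alone and −1.32 ± 0.21 in libraries 3 and 4 alone, and with TNF + IFN it was −2.42 ± 0.20 and −0.88 ± 0.21, each called.

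**Figure D5:**
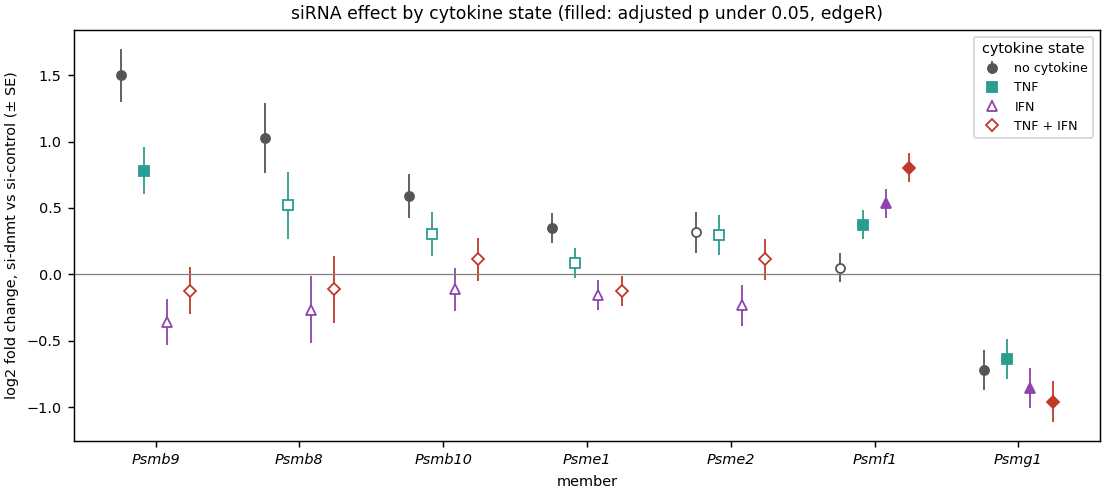
Log2 fold change of si-dnmt against si-control (± SE) for 7 members in the 4 cytokine states, with filled symbols where the edgeR adjusted p was under 0.05. The inducible subunits have their highest value without cytokine, Psmf1 its highest with TNF + IFN (0.80), and Psmg1 lies below 0 in all 4 states (−0.64 to −0.96).

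Of the members with a smaller siRNA effect, Psmd7, a lid subunit that pairs with the deubiquitinase Psmd14, was called higher with si-dnmt in all 4 states (0.27, 0.20, 0.22 and 0.25 on the log2 scale). Psmb2 was higher in 3 of the 4 (0.24 without cytokine, 0.39 with TNF and 0.34 with TNF + IFN) and Psme3 without cytokine (0.48 ± 0.12, adjusted p = 0.00508) and with IFN (0.52 ± 0.12, adjusted p = 0.00247). With the replicate number as a block Psme3 was also called with TNF (0.25, adjusted p = 0.00257) and TNF + IFN (0.24, adjusted p = 0.00461). Psma4 was higher with TNF (0.25) and Psmc5 with IFN (0.25). Psmc6, an ATPase, was lower with TNF (−0.36) and TNF + IFN (−0.32), Psmd4, the ubiquitin receptor, without cytokine (−0.19) and with TNF + IFN (−0.23), and Psmb1 without cytokine (−0.27). Psmg3, a chaperone that pairs with Psmg4, was lower with IFN at 2.39, 2.48, 1.472 and 2.596 CPM against 4.091, 4.837, 4.091 and 2.7 (−0.81 ± 0.23, adjusted p = 0.0113), a call lost without si-dnmt + IFN replicate 3 (−0.65, adjusted p = 0.0579). Several of these calls were lost when 1 library was left out, with estimates of the same sign and similar size. Without cytokine, the call of Psmb2 was lost without any of si-control replicates 1, 2 and 3 and si-dnmt replicates 2, 3 and 4 (0.20 to 0.25), that of Psmd4 without any of replicates 1, 2 and 3 of either group (−0.20 to −0.14) and that of Psmb1 without replicate 3 of either group or replicate 1 of si-control (−0.25 to −0.23). With TNF, leaving out replicate 3 of either group or replicate 2 of si-control + TNF ended that of Psma4 (0.20 to 0.23). With IFN, leaving out replicate 3 or 4 of either group or replicate 1 of si-control + IFN ended that of Psmc5 (0.20 to 0.26) and leaving out replicate 3 of either group or replicate 4 of si-control + IFN that of Psmd7 (0.18 to 0.22). With TNF + IFN, Psmd7 was lost without si-control + TNF + IFN replicate 1 or si-dnmt + TNF + IFN replicate 3 (0.21 and 0.22), and Psmc6 without replicate 4 of either group or replicate 3 of si-dnmt + TNF + IFN (−0.30 to −0.26).

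The joint effect of TNF and IFN was tested as the interaction of both cytokines within each siRNA condition, that is, whether the log2 change with both differed from the sum of the changes with each. In si-control 5 members fell short of that sum and 1 exceeded it (background 1.06% called), and the 5 were the inducible subunits. The interaction was −2.68 ± 0.26 for Psmb9 (adjusted p = 2.58e-07), −2.13 ± 0.37 for Psmb8 (0.00127), −1.56 ± 0.24 for Psmb10 (0.00024), −1.31 ± 0.22 for Psme2 (0.000772) and −0.95 ± 0.16 for Psme1 (0.00116). The member above the sum was Psmf1 (0.75 ± 0.15, adjusted p = 0.00737), whose call was lost in a fit of the 4 groups alone (adjusted p = 0.117). In si-dnmt 3 members fell short and 1 exceeded the sum (background 0.354% called). These were Psmb9 (−1.73 ± 0.25, adjusted p = 0.000275), Psmb10 (−1.05 ± 0.23, 0.0379) and Psme2 (−0.95 ± 0.22, 0.0412), and Psmf1 (0.70 ± 0.15, 0.0323). With the replicate number as a block Psmb8 (−1.44, adjusted p = 0.00497) and Psme1 (−0.65, adjusted p = 0.00169) fell short in si-dnmt too. The si-dnmt calls of Psmb10, Psmf1 and Psme2 were lost in 11, 11 and 13 of the 16 fits that left out 1 library.

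Genes that work with the proteasome in antigen presentation and in its own transcription were read beside the members, as a list of which 25 genes were tested. In si-control 13 were called higher and 0 lower with TNF, where 16.1% and 14.6% of all genes tested were called. With IFN 7 were higher and 2 lower (8.56% and 5.92% of all genes), and with TNF + IFN 14 and 6 (23.5% and 21.6%), so the share called lower in that state was near that of all genes. Irf1, a transcription factor that drives the inducible subunits, rose by 2.01 ± 0.15, 4.40 ± 0.16 and 4.91 ± 0.17 on the log2 scale. Nlrc5, the transactivator of MHC class I genes, rose by 1.73, 3.60 and 4.11, and Tap1 by 1.87, 3.81 and 4.15. Without cytokine si-dnmt raised 5 and lowered 2 of the 25, against 9.58% and 8.88% of all genes, with Nlrc5 at 1.39 ± 0.24 (adjusted p = 0.000146), Tap1 at 1.13 ± 0.19 (8.41e-05), Tap2, the partner of Tap1 in the peptide transporter, at 0.62 ± 0.18 (0.0126) and Irf1 at 0.51 ± 0.14 (0.0127). With IFN and with TNF + IFN it raised 0 of the 25 and lowered 1, against 10.8% and 9.54% of all genes with IFN and 8.97% and 8.72% with TNF + IFN. Nfe2l1, a transcription factor of the constitutive subunits, rose with TNF + IFN by 1.24 ± 0.10 in si-control and was lower with si-dnmt in that state (−0.42 ± 0.09, adjusted p = 0.00191).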

How the data were processed

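The authors deposited gene counts of 32 bulk RNA-seq libraries, as whole counts per gene without normalization. Per the labels' processing notes, reads were trimmed with cutadapt 4.9, checked with FastQC 0.12.1 and MultiQC 1.27.1 and counted with featureCounts, and DESeq2 is also named. The aligner, build, annotation and strand setting were not given in the sources used here, and overlapping genes cannot be told apart. The per-library counts were summed by symbol and equalled the deposited merged table. The 15254 genes that passed filterByExpr of edgeR (minimum count 10) were fitted in all 32 libraries with 8 group means, TMM factors of 0.88 to 1.09 and edgeR 4.0.16 in R 4.3.3, which was tested on simulated data. CPM are TMM-scaled, and SE is the log2 fold change over the root of F. Ratios used a pseudocount of 0.5 count. Alternatives were no filter, RLE scaling, DESeq2 1.42.0, the replicate block, each replicate left out, each set of replicates, the groups of a contrast alone and, added after the data were seen, library totals and the length of the principal transcript. All 112 same-numbered pairs of groups correlated (r = 0.297 to 0.617) in their deviations from group means, and 70 of the 112 were matched best by their own number. Number 1 went with 2 and 3 with 4 almost as closely (median r of 0.409 within these sets and 0.415 at the same number). These correlations therefore do not tell a pairing by number apart from the sets. Members named were the inducible subunits, their counterparts, Psme3, Psme4 and, in each comparison and direction, up to 3 others called with the largest change. Up to 3 partner genes per comparison were named likewise. Members and lists were chosen with earlier results of these data known. Promoter sequences are RefSeq's for GRCm38.p6, and lengths come from GENCODE M21.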

Additional observations from a re-analysis of the deposited data

Results flagged for a closer look

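Named members and the inducible to constitutive ratios were checked in the 8 groups, which made 160 groups of 4 libraries. Of these, 9 held a library whose gap to the nearest other, divided by the group's range, was above Dixon's 95% critical value (chance flags about 1 in 20 such groups). These were Psma6 at 124.2 CPM in si-dnmt + IFN replicate 2 (highest) and at 207.6 CPM in si-dnmt + TNF + IFN replicate 1 (highest), Psmg1 at 12.09 CPM in si-control replicate 2 (lowest) and at 9.562 CPM in si-dnmt + TNF replicate 4 (lowest), Psmb6 at 85.7 CPM in si-dnmt + TNF replicate 4 (lowest), Psmb7 at 95.9 CPM in si-control replicate 2 (lowest) and at 150 CPM in si-dnmt replicate 4 (highest), Psme2 at 75.08 CPM in si-dnmt replicate 3 (lowest) and Psmb9 at 216.8 CPM in si-control + TNF + IFN replicate 1 (highest).

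The response to a cytokine state differed between the siRNA conditions for Psmb9 with IFN (−1.86 on the log2 scale) and with TNF + IFN (−1.62), and for Psmf1 with TNF + IFN (0.75). The response to both cytokines differed from the sum of the single responses in si-control for Psme1 (−0.95), Psmb8 (−2.13), Psmb10 (−1.56), Psmf1 (0.75), Psme2 (−1.31) and Psmb9 (−2.68), and in si-dnmt for Psmb10 (−1.05), Psmf1 (0.70), Psme2 (−0.95) and Psmb9 (−1.73). Each of these is an interaction term of edgeR's quasi-likelihood test with an adjusted p under 0.05. The causes were not tested.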

How the results depend on the processing

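No called value of a named member and no called ratio changed sign under an alternative. Some values that were not called did, such as Psmb10 in the siRNA comparison with IFN (−0.25 to 0.02). The share of all genes called is given for scaling by library totals. For the other alternatives it is not given, so their counts of members called are not results about the members. Without the low-count filter, members called were 22 for TNF in si-dnmt, 16 for TNF + IFN against IFN in si-dnmt, and 6 and 3 for the siRNA without cytokine and with TNF + IFN. With library totals as scaling they were 14 for TNF + IFN against IFN in si-dnmt (25.2% of all genes called) and 13 for the siRNA with IFN (22.3%). With the groups of the contrast alone, 3 were called for the siRNA without cytokine. With the replicate block, 12 were called for the siRNA with IFN and 4 for the interaction of siRNA and TNF + IFN. Among the values of named members the block changed 15 calls, all of them gains. Besides those given above, these were Psme3 in si-dnmt with TNF (0.31) and TNF + IFN (0.16), and Psme4 with IFN in si-control (−0.26), with TNF + IFN in si-dnmt (−0.23) and for the siRNA with TNF + IFN (0.25).

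In replicates 1 and 2 alone, 1, 4 and 5 members were called for the interactions of siRNA with TNF, IFN and TNF + IFN, and 11 and 10 for TNF by IFN in si-control and si-dnmt. In replicates 3 and 4 alone, 21 were called for TNF in si-dnmt, 17, 13, 15 and 11 for the siRNA without cytokine and with TNF, IFN and TNF + IFN, and 2, 2 and 4 for its interactions. The share of all genes called in each set is not given here, so these counts are not results about the members. The log2 ratio differences in these sets (1 and 2, then 3 and 4) were, for Psmb9/Psmb6, 3.13 and 2.45 with TNF, 5.68 and 5.15 with IFN and 5.74 and 5.30 with TNF + IFN in si-control, 3.39 and 4.19 with TNF + IFN in si-dnmt, and 2.09 and 0.81 for the siRNA without cytokine. For Psmb10/Psmb7 they were 1.32 and 1.97 with TNF in si-control, 0.84 and 1.66, 1.66 and 2.51, and 1.79 and 2.71 with TNF, IFN and TNF + IFN in si-dnmt, and −0.24 and 0.27 for the siRNA with TNF + IFN.

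Leaving out 1 library gave 23 to 33 members for TNF in si-dnmt (lowest without si-dnmt replicate 2), 6 to 9 for the siRNA without cytokine (without si-control replicate 1), 3 to 9 with IFN (without si-dnmt + IFN replicate 3), 4 to 6 with TNF + IFN (without si-dnmt + TNF + IFN replicate 3) and 1 to 6 for TNF by IFN in si-dnmt, where leaving out any of si-dnmt replicates 2 to 4, si-dnmt + TNF replicates 1 to 3, si-dnmt + IFN replicates 2 to 4 and si-dnmt + TNF + IFN replicates 1 to 3 gave 1 or 2. The causes were not tested. DESeq2 changed 2 of 219 calls of named members and RLE scaling 2. At this depth Psma8 and Psmb11 stayed under the count filter. The number of members called for the siRNA moved with the set of libraries, with the groups fitted and with the scaling, as given above. Whether the calls of all genes moved likewise is given for the scaling alone.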
